A study of Mus musculus with 4 samples.

Results

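The suppressors of cytokine signalling, SOCS proteins, and the Pim kinases are products of genes that answer cytokines. Their 10 genes Socs1 to Socs7, Cish, Pim1 and Pim2 were taken by gene name from a deposited table of 54532 genes, and each name matched 1 row. They were selected on these same FPKM values, with the difference between DMF and control cultures already known, so that difference is described for them with no test. The libraries held RNA of naive CD4+ T cells from the spleen of wild-type mice, cultured for 3 days under conditions that direct cells to T follicular helper (Tfh) cells, which help B cells make antibody. The DMF group, 2 libraries, had dimethyl fumarate in the culture, a fumaric acid ester known to activate the transcription factor Nrf2. The control group, 2 libraries, had none. The sources used here do not give the dose of DMF, the cytokines of the culture, or the age and strain of the mice.

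Cytokine receptors carry JAK kinases, which phosphorylate STAT transcription factors. STATs enter the nucleus and switch on genes that include Socs1, Socs2, Socs3, Cish, Pim1 and Pim2, here called the STAT-inducible members. SOCS proteins then bind the receptor or its JAK through an SH2 domain, and through their SOCS box they bring in a ubiquitin ligase, which closes a feedback loop. Pim kinases are serine/threonine kinases that are active as soon as they are made and that favour survival and growth of lymphocytes. Socs4 to Socs7 encode proteins with the same SH2 domain and SOCS box behind a longer front part, and are named here as the constitutive members.

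Each of the 6 STAT-inducible members had both DMF values under both control values, and none of Socs4 to Socs7 did. The median difference, DMF minus control on the scale of log2(FPKM + 1), was -1.86 over the STAT-inducible members and 0.42 over Socs4 to Socs7, against -0.01 over the 12166 genes tested. FPKM counts fragments for a gene relative to its length and to a size set for the library. Without control replicate 2 those medians were -1.60 for the STAT-inducible members, 0.11 for Socs4 to Socs7 and 0.01 over all genes. Both DMF libraries lay below both controls for 26.8% of the tested genes and above both for 26.4%. Nothing is read from the members' counts, since the members were chosen with this contrast in view. In bulk RNA, fewer cells of a kind and less RNA per cell cannot be told apart.

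The libraries held between 15900118 and 17516953 reads, worked out from the deposited FPKM. The library sizes that these FPKM imply were 1.068 and 1.066 times the reads in DMF replicates 1 and 2. In control replicates 1 and 2 they were 1.032 and 0.876 times the reads, so the FPKM are not scaled by total reads. Control replicate 2 stood apart. The SD of the log2 difference over tested genes was 0.32 between the DMF libraries and 0.74 between the controls. Control replicate 1 lay nearer to DMF replicates 1 and 2, with SDs of 0.46 and 0.45, than to control replicate 2. The share of reads on ribosomal protein genes was 6.42% to 7.01% in the other libraries and 14.13% in control replicate 2. Control replicate 2 minus control replicate 1 had a median of 0 over tested genes of 11 to 579 bases. Among longer genes, control replicate 2 read the shorter ones higher and the longer ones lower than control replicate 1. The members and the medians of gene lists are therefore also given with each control apart or with control replicate 2 left out. For the marker counts that follow, 26.8% of all tested genes had both DMF libraries below both controls. Another 26.4% had both above. Of 6 CD4 T cell markers, all tested, 4 were lower in both DMF libraries and 2, Cd28 and Trac, overlapped (summed level of the 6: 728 and 699 FPKM in DMF, 782 and 1344 FPKM in control). Cd4 itself was at 103 and 100 FPKM in DMF and 128 and 105 FPKM in control. Of 7 markers of CD8 T and NK cells, Klrb1c and Ncr1 were at 0 in all libraries, and the 3 tested were lower in both DMF libraries (summed level of the 7: 3.04 and 2.96 FPKM in DMF, 13.2 and 21.7 FPKM in control). Of 7 B cell markers, the 6 tested were higher in both DMF libraries (summed level of the 7: 26.7 and 25.5 FPKM in DMF, 10.3 and 13.9 FPKM in control). Summed levels of 7 myeloid markers were 3.77 and 1.76 FPKM in DMF and 5.09 and 9.50 FPKM in control, and 2 of the 3 tested were lower in both DMF libraries. Of 3 red cell markers none was tested, with sums of 1.38 and 2.40 FPKM in DMF and 0.455 and 0.790 FPKM in control. The part of these other cells in the members' values was not tested. Of 6 genes of the Tfh program, Bcl6, Cxcr5, Pdcd1 and Tox were above, and Icos and Il21 below, both control values in each DMF library.

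**Figure D1:**
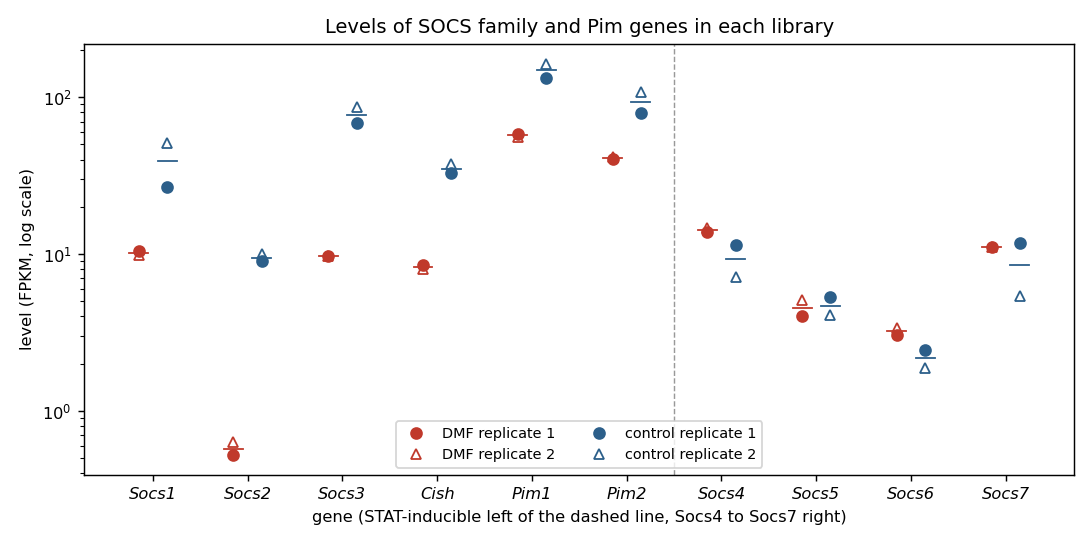
Level of each gene in FPKM on a log scale, with DMF in red left of control in blue, filled circles for replicate 1, open triangles for replicate 2 and a bar at the group mean. All 6 STAT-inducible genes have both DMF points below both control points, while Socs5 and Socs7 overlap and Socs4 and Socs6 lie higher in DMF.

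Socs1 and Socs3 encode the SOCS proteins that block JAK catalysis directly, through a short kinase inhibitory region before the SH2 domain. Socs3 (ENSMUSG00000053113, protein coding, chromosome 11, 117966079 to 117970047, minus strand) stood at 9.66 and 9.69 FPKM in DMF replicates 1 and 2, against 68.0 and 86.3 FPKM in control replicates 1 and 2. The DMF libraries lay close together and far below both controls. Group means were 9.67 ± 0.0219 FPKM in DMF and 77.2 ± 12.9 FPKM in control (SD, n = 2 each), a level 7.98-fold lower in DMF. On the log2 scale the difference was -2.86 ± 0.20 (SE). Set against control replicate 1 alone, Socs3 was 7.03-fold lower, and against control replicate 2 alone 8.92-fold lower.

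Socs1 (ENSMUSG00000038037, chromosome 16, 10782240 to 10785536, minus strand), whose protein damps interferon and interleukin signals, stood at 10.5 and 9.93 FPKM in DMF replicates 1 and 2 and at 27.0 and 51.1 FPKM in control replicates 1 and 2. The groups did not overlap, but the controls were far apart. The mean was 10.2 ± 0.408 FPKM in DMF and 39.0 ± 17.1 FPKM in control (SD, n = 2 each), and the log2 difference was -1.77 ± 0.35 (SE). The DMF level was 2.64-fold lower than control replicate 1 and 5.01-fold lower than control replicate 2, so its size depended more on the choice of control than that of Socs3. The ratio of Socs3 to Socs1, both in FPKM, was 0.92 and 0.976 in the DMF libraries and 2.52 and 1.69 in the controls. Socs3 thus exceeded Socs1 in the controls, and their levels were near each other in DMF.

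Cish and Socs2 encode the SOCS proteins that act mainly by holding phosphorylated receptor sites, and both are standard targets of STAT5, the STAT used by interleukin 2. Cish (ENSMUSG00000032578, chromosome 9, 107296026 to 107302784, plus strand) stood at 8.49 and 8.04 FPKM in DMF replicates 1 and 2, against 33.0 and 37.3 FPKM in control replicates 1 and 2. Replicates of both groups lay close together. The mean level was 8.27 ± 0.314 FPKM in DMF and 35.1 ± 3.01 FPKM in control (SD, n = 2 each), 4.25-fold lower in DMF, with a log2 difference of -1.96 ± 0.18 (SE).

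Socs2 (ENSMUSG00000020027, chromosome 10, 95385362 to 95417180, minus strand), known for its brake on growth hormone signalling, stood at 0.522 and 0.629 FPKM in DMF replicates 1 and 2 and at 9.03 and 9.96 FPKM in control replicates 1 and 2. These values rest on 91 and 112 reads in the DMF libraries and on 1525 and 1322 reads in the controls. Socs2 had the largest ratio of the 10 genes, 16.5-fold lower in DMF, and between single libraries the ratio ran from 14.3-fold to 19.1-fold. Its log2 difference of -2.73 ± 0.19 (SE) understates that ratio, because a pseudocount of 1 exceeds the DMF level. With a pseudocount of 0.1 it was -3.83. The ratio of Cish to Socs2, in FPKM, was 16.3 and 12.8 in the DMF libraries against 3.66 and 3.74 in the controls.

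Pim1 and Pim2 had the highest levels of the members in every library, and their differences were the smallest of the STAT-inducible genes. Pim1 (ENSMUSG00000024014, chromosome 17, 29490812 to 29496111, plus strand) was at 58.1 and 56.1 FPKM in DMF replicates 1 and 2 and at 132 and 164 FPKM in control replicates 1 and 2. The groups lay well apart, with a log2 difference of -1.35 ± 0.23 (SE). The level in DMF was 2.32-fold lower than in control replicate 1 and 2.87-fold lower than in control replicate 2.

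Pim2 (ENSMUSG00000031155, chromosome X, 7878262 to 7883432, plus strand) was at 40.3 and 41.3 FPKM in DMF replicates 1 and 2, against 79.1 and 108 FPKM in control replicates 1 and 2. Its mean was 2.29-fold lower in DMF, and the log2 difference was -1.16 ± 0.24 (SE). Pim1 exceeded Pim2 in each library, with a ratio of FPKM of 1.44 and 1.36 in DMF and 1.67 and 1.52 in control. The remaining gene of the kinase family, Pim3, which is no member, was at 41.5 and 41.0 FPKM in DMF and 41.3 and 53.9 FPKM in control, and its groups overlapped (log2 difference -0.19 ± 0.22, SE; limma adjusted p = 0.670). Pim1 stood 1.40 and 1.37 times as high as Pim3 in the DMF libraries and 3.21 and 3.04 times as high in the controls.

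Promoter sequence was at hand from RefSeq (GRCm38.p6, 250 bases before to 50 after a start) for Socs1, Socs3, Socs4, Cish, Pim1 and Pim2, with a pair of windows for Pim1. The windows were searched for TTCNNNGAA, the core that STAT dimers bind and the same on both strands, and, on both strands, for GAAA, any 2 bases and GAAA again, a core bound by interferon regulatory factors. TTCNNNGAA occurred in the windows of Socs3 and Cish, and in 8.3% of all 32851 windows. Among the members' windows the doubled GAAA occurred only in that of Socs1, as a pair of overlapping copies, and in 3.44% of all windows. The Pim1, Pim2 and Socs4 windows held neither string of letters, which says nothing of sites elsewhere. The stretches with a match are shown 5′ to 3′ on the strand of the gene because they belong to members that were lower in DMF, with the matches in capitals.
Socs3: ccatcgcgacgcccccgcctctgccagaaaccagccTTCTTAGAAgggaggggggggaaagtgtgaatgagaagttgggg
Socs1: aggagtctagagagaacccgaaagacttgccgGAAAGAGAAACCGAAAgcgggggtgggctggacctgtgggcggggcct
Cish: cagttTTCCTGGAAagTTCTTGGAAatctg
The Socs3 stretch is chr11:117969477-117969556 (minus strand), and its match begins 154 bases before the RefSeq start. The deposited Socs3 gene starts further upstream, at 117970047, so this stretch lies inside the gene as deposited. The Socs1 stretch is chr16:10785572-10785651 (minus strand), with matches that begin 83 and 77 bases before the start. The Cish stretch is chr9:107296654-107296683 (plus strand), and it spans the RefSeq start, with a match at the start itself and another 11 bases after it. The deposited Cish gene also starts further upstream, at 107296026, so the Cish stretch lies inside the deposited gene too. No binding of a factor was measured here, and a match is a description of the letters.

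Among the constitutive members, Socs4 and Socs6 had both DMF values over both control values, and Socs5 and Socs7 overlapped. Socs4 (ENSMUSG00000048379, chromosome 14, 47276931 to 47296102, plus strand), whose protein is known for a link to growth factor receptors, was at 13.8 and 14.7 FPKM in DMF replicates 1 and 2, against 11.4 and 7.10 FPKM in control replicates 1 and 2. The DMF values lay near each other, and most of the distance came from control replicate 2. The level in DMF was 1.25-fold that of control replicate 1 and 2.01-fold that of control replicate 2. The log2 difference was 0.61 ± 0.26 (SE) with all libraries and 0.30 without control replicate 2.

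Socs6 (ENSMUSG00000056153, chromosome 18, 88665224 to 88927481, minus strand), whose protein binds the receptor tyrosine kinase Kit, was at 3.07 and 3.36 FPKM in DMF and 2.46 and 1.88 FPKM in control, in the order of replicates 1 and 2. It was the second lowest of the 10 in the DMF libraries. Its log2 difference of 0.42 ± 0.21 (SE) was 0.28 without control replicate 2 and 0.19 with the gene length trend removed. Socs7 (ENSMUSG00000038485, chromosome 11, 97362551 to 97398542, plus strand), an adaptor-like SOCS protein with several coding exons, was at 11.1 and 11.2 FPKM in DMF and 11.7 and 5.41 FPKM in control. Control replicate 1 lay above both DMF libraries and control replicate 2 far below them. The log2 difference of 0.43 ± 0.37 (SE) turned to -0.07 without control replicate 2, so the data give Socs7 no stable direction.

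Socs5 (ENSMUSG00000037104, chromosome 17, 87107679 to 87137583, plus strand), studied in T cells for its binding to the interleukin 4 receptor, was at 4.01 and 5.11 FPKM in DMF and 5.29 and 4.09 FPKM in control. The libraries of the groups interleaved, and the log2 difference was -0.03 ± 0.22 (SE). It ran from -0.19 to 0.12 over the alternatives tried, with control replicate 1 or 2 left out at its ends. Socs4 to Socs7 thus differed among themselves less than the STAT-inducible members did, with log2 differences from -0.03 to 0.61 against -2.86 to -1.16.

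**Figure D2:**
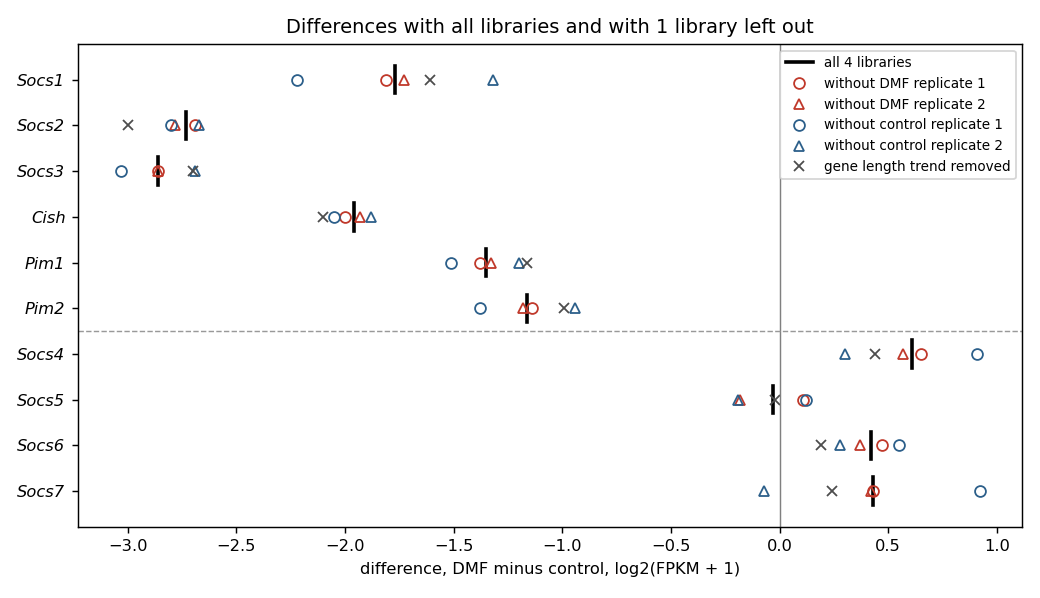
Difference between DMF and control for each gene on the scale of log2(FPKM + 1), with all 4 libraries (black bar), with each library left out (symbols) and with the gene length trend removed (cross). The STAT-inducible genes stay left of 0 under each setting drawn, while Socs5 and Socs7 cross it. With a library left out the STAT-inducible genes could not cross, since both DMF values lie under both control values.

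The order of levels shifted with these differences. In DMF the means ran, from high to low, Pim1 (57.1 FPKM), Pim2 (40.8), Socs4 (14.2), Socs7 (11.1), Socs1 (10.2), Socs3 (9.67), Cish (8.27), Socs5 (4.56), Socs6 (3.21) and Socs2 (0.576). Neighbours in that order did not overlap between their replicates, though Socs7, Socs1, Socs3 and Cish lay close together. In control they ran Pim1 (148 FPKM), Pim2 (93.4), Socs3 (77.2), Socs1 (39.0), Cish (35.1), Socs2 (9.49), Socs4 (9.24), Socs7 (8.55), Socs5 (4.69) and Socs6 (2.17). There Pim2 and Socs3 overlapped, as did Socs1 and Cish, and Socs2, Socs4 and Socs7.

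Summed over the 8 SOCS family genes, the level was 61.1 and 62.6 FPKM in the DMF libraries and 168 and 203 FPKM in the controls. Socs1, Socs2, Socs3 and Cish together made up 47.7% and 45.2% of that sum in DMF replicates 1 and 2, against 81.6% and 90.9% in control replicates 1 and 2. Socs3 alone made up 15.8% and 15.5% in DMF and 40.5% and 42.5% in control, the highest share of any gene in both controls. Socs4 had the highest share in both DMF libraries, with 22.6% and 23.4%, against 6.78% and 3.49% in control. The share of Socs1 hardly set the groups apart, at 17.2% and 15.9% in DMF and 16.1% and 25.2% in control. Socs4 to Socs7 summed to 32.0 and 34.3 FPKM in DMF and 30.8 and 18.5 FPKM in control, while the other 4 summed to 29.2 and 28.3 FPKM in DMF and 137 and 185 FPKM in control.

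**Figure D3:**
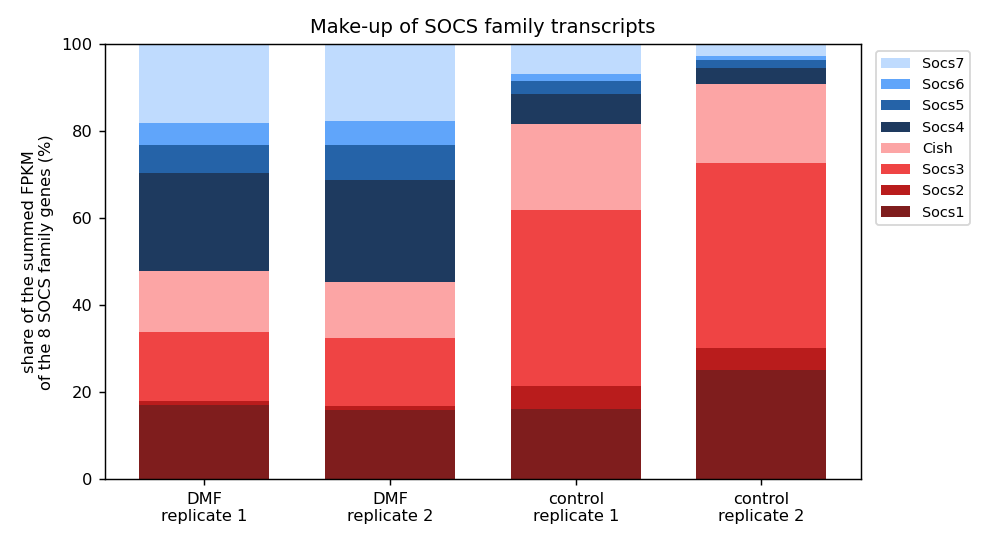
Share of each gene in the summed FPKM of the 8 SOCS family genes, in percent, for each library, with STAT-inducible genes in red shades and Socs4 to Socs7 in blue shades. The blue part is 52.3% and 54.8% in the DMF libraries and 18.4% and 9.09% in the controls.

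The coding sequence is longer in each of Socs4 to Socs7 than in any STAT-inducible member. Counts of coding exons and gene lengths overlap between the classes, and gene length bears on how the genes were read. In GENCODE M21, Socs1 and Socs3 carry their coding sequence in 1 exon, of 636 and 675 bases, Socs2 in 2 exons (594 bases) and Cish in 3 (771 bases). Socs4, Socs5 and Socs6 also have a single coding exon, but of 1308, 1608 and 1599 bases, and Socs7 has 9 with 1737 bases. Pim1 and Pim2 have 6 coding exons each, of 939 and 1110 bases. The lengths that scale the FPKM ran from 2638 to 2908 bases for Socs1, Socs3, Pim1 and Pim2, and from 4392 to 9531 bases for Cish, Socs2 and Socs4 to Socs7. Control replicate 2 minus control replicate 1 had a median of 0.38 on the log2 scale over tested genes of 2251 to 2930 bases and of -0.37 over those of 6754 to 8928 bases. Socs3, Pim1 and Pim2, at 0.34, 0.31 and 0.44, lay near the median of their length group, and Socs1 lay above it at 0.90. Socs4 and Socs6, at -0.61 and -0.27, lay on either side of theirs, and Socs7 lay below at -0.99. Socs5, at -0.31, lay below the 0.08 of its group. Cish and Socs2, at 0.17 and 0.13, lay above the medians of their groups, -0.21 and -0.60. With the length trend removed from each library, the median difference between DMF and control was -1.85 over the STAT-inducible members and 0.22 over Socs4 to Socs7.

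**Figure D4:**
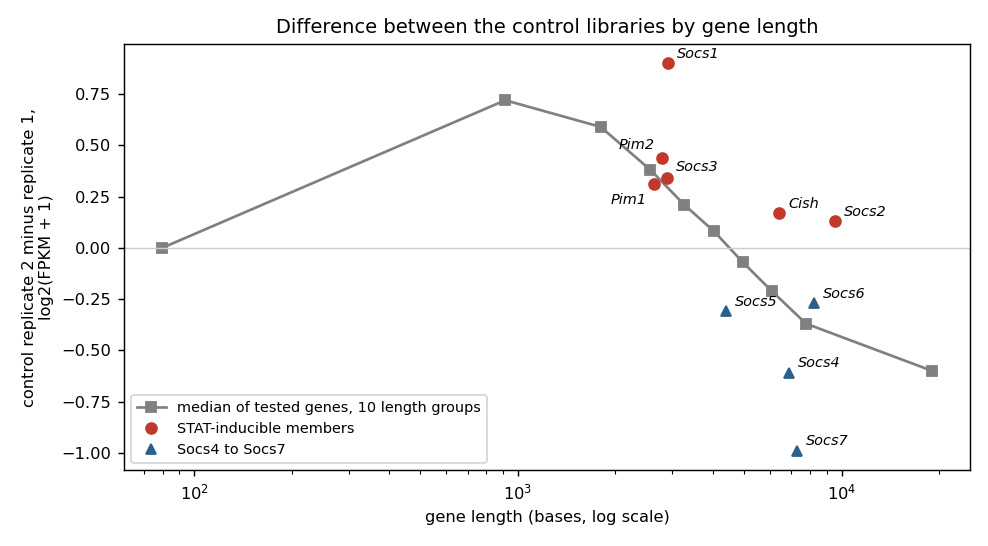
Control replicate 2 minus control replicate 1 on the scale of log2(FPKM + 1) against gene length in bases on a log scale. Grey squares are medians of the tested genes in 10 groups by length, red circles STAT-inducible genes and blue triangles Socs4 to Socs7, which all lie below 0.

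The genes around the members in the pathway were read from 8 lists of 85 genes, of which 83 were tested. limma, which fits a linear model across all genes, called 0 of them with a 0.05 threshold on the adjusted p, whose lowest value was 0.167, and 0% of all tested genes. At an unadjusted p under 0.05 there were 15 list genes lower and 3 higher in DMF, against 6.31% of all tested genes lower and 3.14% higher. The lists too were chosen with earlier results of these data known. Their counts, here and below, are therefore description and no support. Over all genes limma gave 1150 at that unadjusted threshold, and its voom form on the reads gave 1174 and also called 0. With a control replicate left out, the single control that remains is assumed to vary as the DMF libraries did. Calls from such fits are therefore not read.

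Of 16 cytokine receptors tested, 13 had both DMF values under both control values, against 26.8% of all tested genes, and 1, Il6st, had both over them, against 26.4%, with a median log2 difference of -0.63 (-0.60 without control replicate 2). Il7r, the interleukin 7 receptor, was at 0.352 and 0.333 FPKM in DMF and 4.997 and 4.14 FPKM in control (limma adjusted p = 0.176). Ifngr1, a chain of the interferon-gamma receptor, was at 7.504 and 5.29 FPKM in DMF and 20.3 and 24.7 FPKM in control (limma adjusted p = 0.201). Il10ra, of the interleukin 10 receptor, stood at 0.593 and 0.658 FPKM in DMF against 3.26 and 2.65 FPKM in control. Il2rb, the signalling chain through which interleukin 2 reaches STAT5, was at 39.3 and 37.6 FPKM in DMF and 84.5 and 80.4 FPKM in control (log2 difference -1.08 ± 0.19, SE; limma adjusted p = 0.245). Against control replicate 1 alone, Il7r was 14.6-fold, Ifngr1 3.18-fold, Il10ra 5.2-fold and Il2rb 2.2-fold lower in DMF. Il6ra, which binds interleukin 6, was also lower in both DMF libraries, at 5.08 and 5.58 FPKM against 13.0 and 7.92 FPKM in control.

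The median of the receptors was lower than those of the kinases and factors between receptor and gene. With the length trend removed the median of the STAT factors came close to it, at -0.52 against -0.63. Stat4 and Il2rb had the same log2 difference, -1.08. Of the JAK kinases, Jak2 and Tyk2 were above both controls in DMF while Jak1 and Jak3 overlapped, with a median log2 difference of 0.22 that was -0.06 without control replicate 2. Jak3, which serves the interleukin 2 family receptors, was at 92.1 and 90.2 FPKM in DMF and 101 and 77.4 FPKM in control. Of 7 STAT factors, 4 lay below both controls (26.8% of all tested genes did) and none above (26.4%), with a median of -0.34 (-0.43 without control replicate 2). Stat4, which carries the interleukin 12 signal, had the smallest p of them, at 2.98 and 3.42 FPKM in DMF and 7.87 and 7.84 FPKM in control (limma adjusted p = 0.231). Stat5a was at 37.0 and 37.7 FPKM in DMF and 50.5 and 44.9 FPKM in control, while Stat5b, at 35.3 and 33.8 FPKM against 46.3 and 29.5 FPKM, and Stat3 overlapped. Transcript levels do not measure STAT phosphorylation.

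Of 13 other STAT-induced genes tested, 9 were below both controls in DMF, against 26.8% of all tested genes, and 1 above, against 26.4%, with a median log2 difference of -0.45 (-0.32 without control replicate 2). Osm, the cytokine oncostatin M and a STAT5 target, was at 3.85 and 3.44 FPKM in DMF and 17.3 and 23.3 FPKM in control (log2 difference -2.19 ± 0.22, SE; limma adjusted p = 0.167). Bcl3, which works with NF-kB, stood at 14.4 and 18.1 FPKM in DMF and 61.5 and 76.3 FPKM in control (limma adjusted p = 0.185). Bcl2, which protects from apoptosis, was at 9.86 and 10.2 FPKM in DMF and 27.6 and 19.2 FPKM in control (limma adjusted p = 0.310). Bcl6, which sets the Tfh fate, was the gene above both controls, at 6.58 and 6.75 FPKM in DMF against 4.55 and 3.24 FPKM in control. Myc and Ccnd2, further growth genes of this list, overlapped between the groups. Prdm1 lay below the level filter.

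Of 13 other brakes on JAK-STAT signalling, 4 were below both controls, 4 above and 5 overlapping, near the 26.8% and 26.4% of all tested genes. Their median log2 difference was -0.09, and -0.02 without control replicate 2. Usp18, the brake on the type I interferon receptor, was at 2.02 and 1.57 FPKM in DMF and 5.20 and 5.22 FPKM in control (limma adjusted p = 0.241). Ptpn11, the phosphatase SHP2, was at 36.2 and 36.6 FPKM in DMF and 24.9 and 13.5 FPKM in control (limma adjusted p = 0.511). Ptpn1, a phosphatase of JAK2 and TYK2, was at 53.5 and 52.5 FPKM in DMF and 71.9 and 74.4 FPKM in control, and Pias4, a SUMO ligase that binds STATs, at 15.3 and 17.2 FPKM against 19.2 and 31.4 FPKM.

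The partners through which the SOCS box acts were followed too. Of 9 parts of the ubiquitin ligase, 5 were below both controls in DMF (26.8% of all tested genes) and 2 above (26.4%). The median log2 difference of -0.38 was -0.09 without control replicate 2. Elob, an elongin subunit of this ligase, was at 101 and 98.2 FPKM in DMF and 116 and 322 FPKM in control, so control replicate 2 set most of its distance. Nedd8, which activates the cullin, and Rbx1 showed the same split between the controls. Cul5, the cullin of SOCS complexes, was at 9.75 and 9.60 FPKM in DMF and 7.23 and 5.90 FPKM in control (limma adjusted p = 0.526). Of 12 tested genes for other SOCS box proteins, 3 lay below both controls, 2 above and 7 overlapped, with shares below and above no higher than the 26.8% and 26.4% of all tested genes. Their median was -0.05, and -0.13 without control replicate 2. Wsb1, which had the smallest p of these, was at 32.4 and 36.3 FPKM in DMF and 26.8 and 22.1 FPKM in control, and Asb2, Asb3 and Asb6 were the genes below both controls. Of 9 genes whose proteins Pim kinases phosphorylate, 3 lay below both controls and 2 above, near the 26.8% and 26.4% of all tested genes. Their median was -0.21, and -0.10 without control replicate 2. Bad, a death-promoting BCL2 relative that Pim kinases silence, was at 8.63 and 7.45 FPKM in DMF and 11.6 and 23.1 FPKM in control, and Cdkn1a, the cell cycle inhibitor p21, at 203 and 205 FPKM against 265 and 358 FPKM. Cdkn1b, the inhibitor p27, was at 16.6 and 16.4 FPKM in DMF and 25.1 and 17.3 FPKM in control, and the phosphatase Cdc25a at 9.49 and 9.73 FPKM against 7.34 and 5.92 FPKM.

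**Figure D5:**
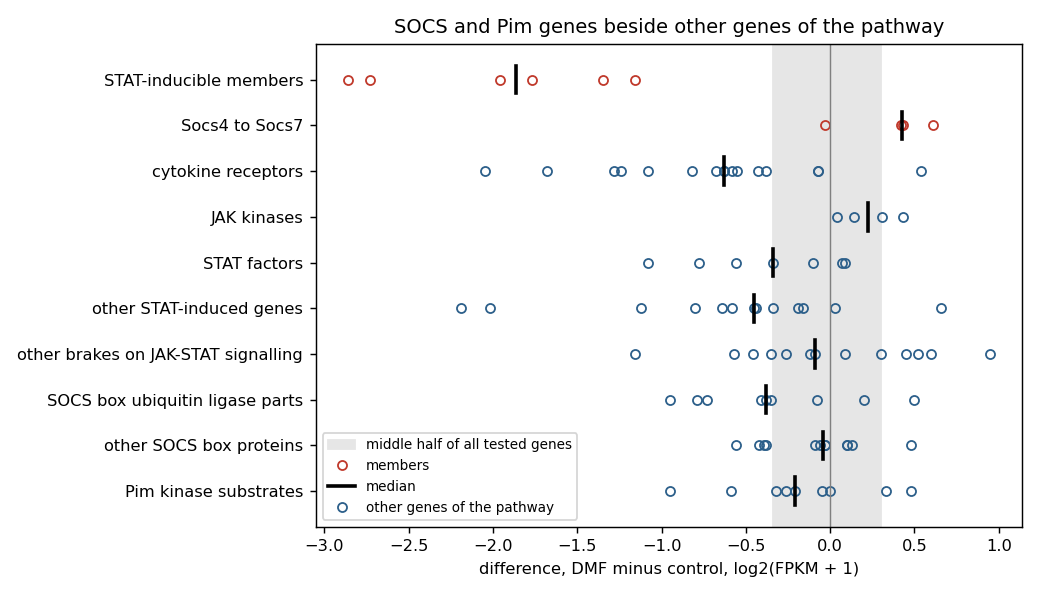
Difference between DMF and control on the scale of log2(FPKM + 1) for each member (red) and each tested gene of 8 pathway lists (blue), with the median as a black bar. The grey band holds the central quartiles of all tested genes, from -0.34 to 0.30, and the STAT-inducible members all lie left of it.

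The genes closest in profile to each class were found by the Euclidean distance over the 4 libraries, on log2(FPKM + 1) centred on each gene's mean. Closest to the mean of the STAT-inducible members were Cyp11a1, Sdc4, Upp1, Pglyrp2 and Rhoc, at distances of 0.0962 to 0.207. Cyp11a1, the enzyme that starts steroid synthesis, was at 0.409 and 0.312 FPKM in DMF and 3.92 and 5.38 FPKM in control, and Sdc4, a cell surface proteoglycan, at 2.47 and 2.94 FPKM against 11.3 and 16.5 FPKM. Of the members themselves Cish lay nearest to the class mean, at a distance of 0.155, and Socs3 farthest, at 0.89. Closest to the mean of Socs4 to Socs7 were D3Ertd254e, Heatr6, Ptpn23, Cdc37l1 and Zfp664, at 0.0297 to 0.045. All 5 of these had their lowest value in control replicate 2, such as Ptpn23, a phosphatase-like protein, at 29.9 and 33.7 FPKM in DMF and 30.1 and 19.9 FPKM in control. With only 4 libraries these distances describe the shape of the contrast and of control replicate 2.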

How the data were processed

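The authors deposited 1 table of FPKM for 54532 genes with names, coordinates and gene length, per the file headers. The aligner and counter are not stated. Per the submitters' processing notes edgeR was used, in a role they leave out, and mm8 is the build named. Of 54409 gene identifiers found in GENCODE M21 (GRCm38), 98.33% have the same coordinates in the deposited table, though not Pim1 and Socs5, so coordinates of genes are given as deposited and as GRCm38. FPKM times gene length gave whole multiples of 1 step for 100% of values, within 0.01, and reads were worked out from it. The counting is not stated to use strand. Gm17040 and Gm17041 overlap Cish and Gm26885 overlaps Pim1 on the other strand, with at most 26 reads in any library. Replicates of a group differed by more than counting error (chi-square per degree of freedom 3.61 in DMF and 147 in control). Nothing in the labels says that they came from separate cultures or animals, so p-values cover only the variation among these samples, which may be technical. Replicate numbers were checked for pairing, with a correlation of deviations of -0.02 over genes, and treated as unpaired. An exact permutation test of 2 against 2 libraries cannot go below p = 0.333.

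The test was limma 3.58.1 in R 4.3.3 (lmFit, eBayes with a trend) on log2(FPKM + 1), taken as DMF minus control and two-sided, over the 12166 genes whose mean was 1 FPKM or more, adjusted by Benjamini-Hochberg, with 0.05 as the threshold. All 10 members passed that filter. SE are those of this fit. The script was tested on simulated data. The members, the lists, the STAT-inducible and constitutive classes and the rule for named genes (the members, up to 4 genes of each list by p, others for their role, and the 5 nearest profiles) were chosen with earlier results of these data known. Genes with close relatives or overlaps may share reads. The values of 1 list gene are not reported here. Alternatives were pseudocounts of 0.5 and 0.1, no filter and a mean FPKM of at least 5, other scalings, removal of the length trend (loess, span 0.3), other eBayes forms, voom, a replicate block, and each library left out.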

Additional observations from a re-analysis of the deposited data

How the results depend on the processing

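The STAT-inducible members kept a negative difference under each of the 11 alternatives run for them. With a library left out that sign was fixed in advance, since both DMF values lay under both control values. It was also fixed under the replicate block. The median of the STAT-inducible members, -1.86, ran from -2.13, without control replicate 1, to -1.60, without control replicate 2. Its gap to the median of Socs4 to Socs7, -2.29, ran from -2.86 to -1.70 under the same settings. The median of Socs4 to Socs7, 0.42, ran from 0.11 to 0.73 with a library left out. Socs7 turned to -0.07 without control replicate 2 and was 0.92 without control replicate 1. Socs5, at -0.03, turned to 0.10 with libraries scaled by total reads, 0.12 without control replicate 1 and 0.11 without DMF replicate 1, and was -0.19 without control replicate 2. Scaling by total reads moved the median of all genes to 0.12, so Socs5 stayed below that median. That scaling put the median of the STAT-inducible members at -1.71 and that of Socs4 to Socs7 at 0.55. The count of 0 genes called was 3 with the length trend removed, 552 with the replicate block, 8 without DMF replicate 1, 6 without DMF replicate 2, 7420 without control replicate 1 and 1007 without control replicate 2. Of the pathway genes 0 were called, against 9 with the replicate block and 0 to 66 with a library left out. The replicate numbers are not known to pair the samples. Because each group holds both replicate numbers, the block cannot change a difference, only its error. The cause of these shifts was not tested. With 2 libraries a group, the controls differed by as much in Socs4, and by more in Socs5 and Socs7, than the groups did.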
